A study of Mus musculus with 8 samples.

Results

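Cell cycle and DNA replication genes were followed in conventional CD4+ T (Tconv) cells that had been sorted from tumors by the chemokine receptor CCR8. The genes were taken by symbol from a list of 60, and all 60 were present among the 11233 genes measured, each with a mean of at least 10 normalized counts over the libraries. They comprised 24 genes of S phase, 26 genes of mitosis and 10 regulators of G1 and of the G1/S transition. Bulk RNA-Seq was performed on 4 libraries of CCR8+ and 4 libraries of CCR8- Tconv cells. Both groups came from subcutaneous tumors of B16-F10, a melanoma cell line of mouse origin, in Foxp3EGFP-DTR mice, which carry the diphtheria toxin receptor and EGFP under control of the endogenous Foxp3 gene. All mice were given diphtheria toxin (DTx), which depletes regulatory T (Treg) cells in these animals, at 1 µg in 4 injections from day 7 to day 13 after implantation, and were 8 to 14 weeks old. Cells were taken at day 16 according to the methods, and a supplementary title gives day 18 for these data. Both sorted fractions were EGFP-negative, and were then parted by surface CCR8, and Treg-replete mice were not analysed here. Each group had 4 biological replicates, numbered 1 to 4 in each group and all collected on a single day, and the labels do not say whether a shared number means a shared mouse.

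A cell that enters the cycle passes a restriction step in G1, where D-type cyclins with CDK4 and CDK6, and then E-type cyclins with CDK2, release E2F transcription factors from the retinoblastoma proteins. E2F factors switch on the genes of S phase, which load and start the MCM helicase, copy DNA and supply deoxynucleotides. The genes of mitosis follow in G2, driven in large part by the MuvB complex with B-MYB and FOXM1, and build the spindle, the kinetochore and the checkpoint that controls the anaphase-promoting complex. In T cells, antigen and interleukin-2 start this program, and transcripts of both phases are commonly used as a measure of how much of a population is cycling.

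The 2 phases differ in their promoters, and short windows of 6 genes are shown because they carry the motifs that separate the groups. Promoters of 300 bases (250 before and 50 after the start) were available for 49 of the 60 genes in RefSeq, build GRCm38.p6. An E2F site, spelled TTTCCCGC, TTTCGCGC, TTTGCCGC or TTTGGCGC on either strand, was found in 10 of 21 S-phase promoters (47.6%), in 1 of 20 mitosis promoters (5%) and in 0 of 8 regulator promoters. The same letters were in 4.91% of the 8497 promoters of genes tested and in 2.60% of 27025 promoters in all. A cell cycle homology region (CHR, TTTGAA or TTCGAA on either strand) together with a CCAAT box on either strand was found in 15 of 20 mitosis promoters (75.0%) and 4 of 21 S-phase promoters (19.0%), against 6.84% of the genes tested and 8.61% of all promoters. In the bases before the start alone, an E2F site was found in 33.3% of S-phase promoters, and a CHR with a CCAAT box in 45% of mitosis promoters and again in 19.0% of S-phase promoters, against 4.11% and 5.64% of the genes tested. In the lines below, read 5′ to 3′ on the strand of the gene and taken only from bases before the start, capitals mark E2F sites, CHR elements and CCAAT boxes, each on either strand. Where E2F sites overlap, only the first is fully in capitals.
Mcm5, chr8:75109309-75109398, plus strand: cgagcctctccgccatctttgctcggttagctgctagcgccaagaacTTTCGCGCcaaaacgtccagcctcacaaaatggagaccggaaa
Mcm6, chr1:128359731-128359830, minus strand: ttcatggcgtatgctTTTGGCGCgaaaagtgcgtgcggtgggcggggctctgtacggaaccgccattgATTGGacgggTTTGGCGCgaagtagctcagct
Pola1, chrX:93632246-93632335, minus strand: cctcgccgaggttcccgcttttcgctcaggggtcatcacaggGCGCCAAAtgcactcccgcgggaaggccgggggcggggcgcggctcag
Cdc20, chr4:118437353-118437433, minus strand: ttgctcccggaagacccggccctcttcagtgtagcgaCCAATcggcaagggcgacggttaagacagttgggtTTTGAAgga
Ccnb2, chr9:70421565-70421734, minus strand: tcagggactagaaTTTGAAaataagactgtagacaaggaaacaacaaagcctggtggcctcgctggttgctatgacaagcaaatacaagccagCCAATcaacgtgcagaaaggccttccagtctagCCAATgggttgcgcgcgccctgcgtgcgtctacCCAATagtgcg
Cdk1, chr10:69352939-69353062, minus strand: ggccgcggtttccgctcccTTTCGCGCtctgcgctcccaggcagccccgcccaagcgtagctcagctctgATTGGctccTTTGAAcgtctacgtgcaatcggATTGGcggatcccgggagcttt
The Mcm6 window held 2 copies of TTTGGCGC, at 110 and 47 bases before the start, with a CCAAT box read on the opposite strand between them. The copy at 110 bases is overlapped by the reverse complement of TTTCGCGC. Mcm5 held TTTCGCGC at 153 bases before the start, overlapped by the reverse complement of TTTGGCGC. Pola1 held the reverse complement of TTTGGCGC at 138 bases before the start. Within the bases shown, Cdc20 held 1 CHR and 1 CCAAT box and Ccnb2 held 1 CHR and 3 CCAAT boxes. Neither promoter held an E2F site over its 300 bases. Cdk1 was the 1 mitosis promoter with an E2F site, at 131 bases, and its window also shows 1 CHR with a CCAAT box read on the opposite strand to either side of it. Cdc20 has 1 more CCAAT box and Cdk1 has 1 more CHR and 1 more CCAAT box outside the bases shown. The S-phase examples also have CCAAT boxes there, Mcm5 at 77 and 22 bases before the start, Mcm6 at 14 and Pola1 at 37. A CCAAT box, with or without a CHR, was in 13 of 21 S-phase promoters (61.9%) and 18 of 20 mitosis promoters (90%), against 43.1% of the genes tested. A match of letters is a description of the sequence and shows no binding.

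Libraries held 11469410 to 14394101 normalized counts over all genes, recovered from 12067780 to 17802628 whole reads, so 1 read was worth 0.735 to 1.14 normalized counts. CCR8- replicate 1 had the fewest genes above 0, 8569 of 11233, against 9544 to 10882 in the other 7 libraries. Ccr8 itself, the gene of the sorted marker, stood at 2039, 1293, 6214 and 4637 normalized counts in CCR8- replicates 1 to 4 and at 7975, 6970.2, 42508 and 22965 in CCR8+ replicates 1 to 4. The groups did not overlap for this label check, and Ccr8 transcripts were present in all CCR8- libraries. The 9 markers of conventional CD4+ T cells summed to 91133 to 121653 normalized counts in CCR8- and to 92818 to 128124 in CCR8+ libraries, 0 of the 9 being at 0 in any library. Markers of other cells were present too. The 7 melanoma markers ran from 105 to 17389 in CCR8- and from 232 to 21841 in CCR8+ libraries, and the 13 macrophage and monocyte markers from 87.7 to 85345 in CCR8- and from 3718 to 28580.3 in CCR8+ libraries. The lists for CD8 T cells, dendritic cells, B cells, NK cells, fibroblasts and endothelium, and erythroid cells each summed to at most 3805 in any library. In a bulk library, fewer cells of a type and less RNA per cell cannot be told apart.

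No cell cycle gene passed limma between the fractions. With limma on log2(normalized count + 1) over 11032 genes, 0 of the 60 members had an adjusted p under 0.05, the lowest being 0.838, and the same was true of 0% of all genes tested, whose lowest adjusted p was 0.788. At an unadjusted limma p under 0.05, 5 members were higher in CCR8+ Tconv cells and 0 were lower, where 2.8% of all genes were higher and 2.29% lower at that level. Count tests on recovered reads were also run, here without the replicate number as a block. After adjustment, edgeR called 0 members and 0 genes, and DESeq2 called 0 members and 27 genes. At an unadjusted p under 0.05, 5 members were higher by edgeR and 6 by DESeq2. With the replicate number as a block, DESeq2 called 1 member, Lig1, as described with the alternatives at the end. The 5 by limma were Lig1, Dut and Mcm6 of S phase, Stmn1 of mitosis and the regulator E2f1. Groups that did not overlap, higher in CCR8+, were found for 1 member (Dut), against 2.37% of all genes, and lower in CCR8+ for 0 members, against 2.03%. Read as a share, 5 of 60 members is above the background of genes that were higher at an unadjusted limma p under 0.05, and 1 of 60 without overlap is near that of non-overlapping genes. The number at an unadjusted p under 0.05 changed with the libraries kept: it was 9 without CCR8+ replicate 3, 7 without CCR8- replicate 3, 3 without CCR8- replicate 2, 2 without CCR8+ replicate 1 and 2 without CCR8+ replicate 2. Leaving out a replicate number from both groups gave 2 without number 1, 1 without number 2, 19 without number 3 and 3 without number 4, with 0 lower in CCR8+ in all these settings.

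**Figure D1:**
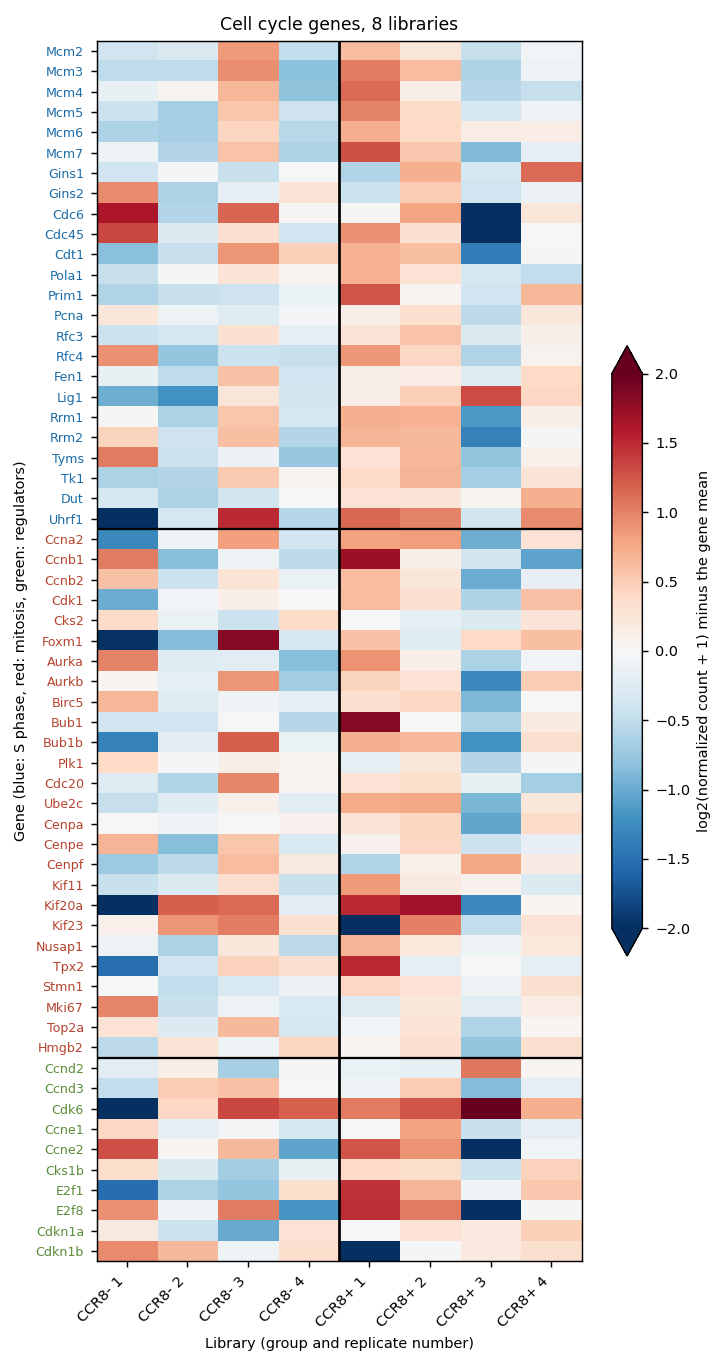
Each row is 1 of the 60 genes and each column 1 library, and color gives log2(normalized count + 1) minus the mean of the gene over the 8 libraries, with the scale ending at 2 in either direction. S-phase rows are mostly red in CCR8+ replicates 1 and 2 and in CCR8- replicate 3, and mostly blue in CCR8- replicate 2 and CCR8+ replicate 3.

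As groups, all 3 lists had medians above that of all genes. The median log2 fold change, CCR8+ over CCR8-, was 0.27 for the S-phase genes, 0.19 for the mitosis genes and 0.24 for the regulators, and 0.039 over all genes tested. The value was above 0 for 19 of 24 S-phase genes, 15 of 26 mitosis genes and 6 of 10 regulators, or 66.7% of the members against 52.4% of all genes. Under the 4 other scalings of the libraries the S-phase median lay between 0.20 and 0.27, the mitosis median between 0.12 and 0.19 and the regulator median between 0.17 and 0.30, with the median of all genes between -0.028 and 0.037. With each library left out in turn the S-phase median ranged from 0.10 (without CCR8+ replicate 1) to 0.54 (without CCR8+ replicate 3), and the mitosis median from -0.028 to 0.38 for the same libraries. The median deviation of a list per library had a pooled SD within fractions of 0.48 for S phase, 0.38 for mitosis and 0.27 for the regulators, each larger than the median fold change of that list. Single genes had a median SD within groups of 0.58 on the log2 scale over the members and 0.83 over all genes. Exonic bases were shared with another annotated gene at 5% or more for 14 members, led by Fen1 (84.2%), Gins2 (67.3%), Kif20a (29.3%) and Ube2c (22.8%). The kit is not stated to keep strand and the counting of shared bases is not stated, so these values may hold reads of the neighbor.

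**Figure D2:**
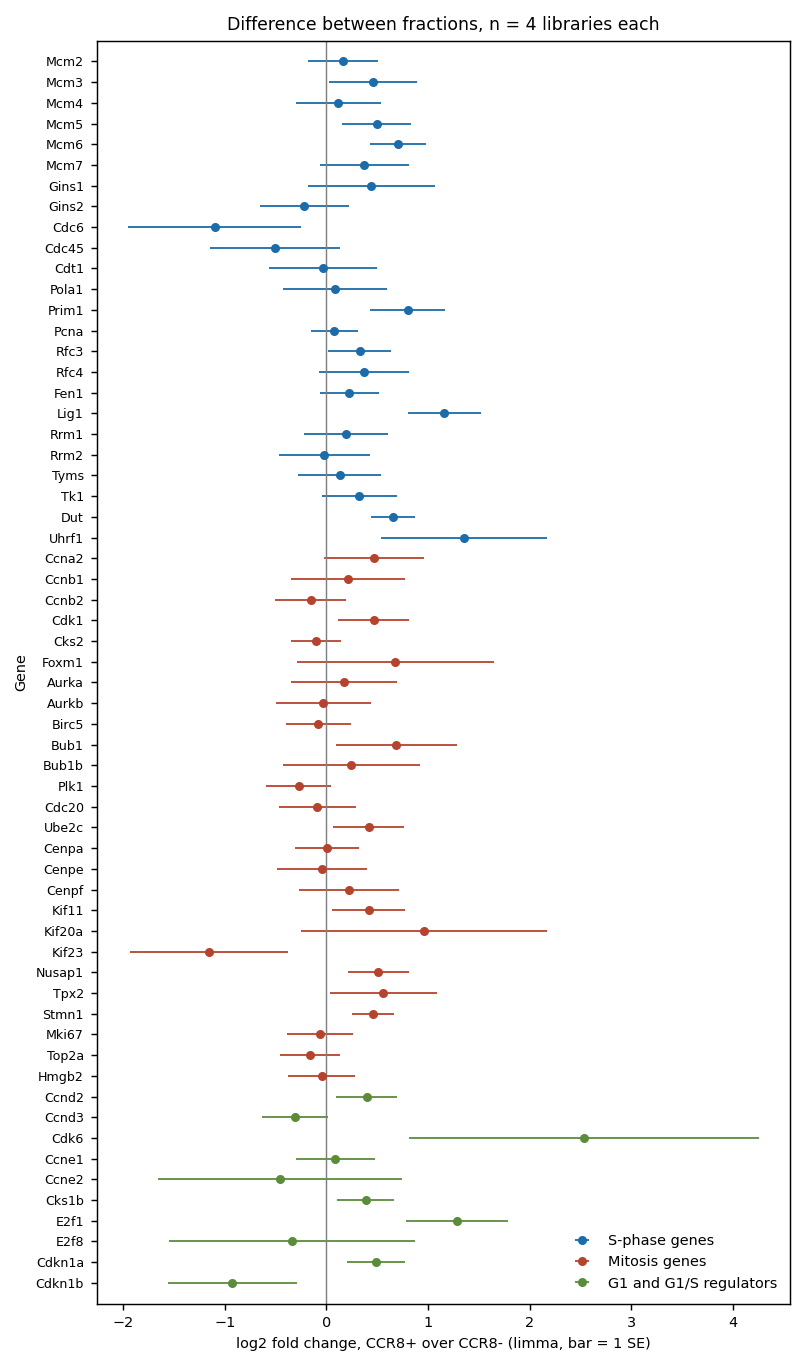
Points give the limma log2 fold change of each of the 60 genes, CCR8+ over CCR8-, and bars 1 SE, with 4 libraries per fraction. Lig1, Dut, Mcm6, E2f1, Stmn1 and Prim1 lie more than 2 SE above 0, and 0 genes lie more than 2 SE below it.

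Genes that license origins and form the replicative helicase were mixed, and coordinates are given for build GRCm38 from GENCODE. Of the 11, 7 lay above 0, with a median log2 fold change of 0.17, and the 6 MCM subunits were all on that side, from 0.12 (Mcm4) to 0.71 (Mcm6). Mcm6, a subunit of the MCM2-7 ring that unwinds DNA (chr1:128331590-128359664, minus strand), stood at 1929, 1865, 3997 and 2011 normalized counts in CCR8- replicates 1 to 4 and at 4896, 3889, 3292 and 3283 in CCR8+ replicates 1 to 4. CCR8- replicate 3 was about as high as CCR8+ replicate 2, and the other CCR8- libraries lay below all CCR8+ libraries. The log2 fold change was 0.71 ± 0.28 (SE, n = 4 per group), with an adjusted p of 0.838 by limma and p = 0.114 by a two-sided exact permutation test, whose smallest possible p is 0.0286. With each library left out, Mcm6 ranged from 0.58 to 0.97 (without CCR8- replicate 3) and had an unadjusted limma p under 0.05 in 3 of 8 fits, and in 2 of the 4 other scalings. Mcm2, another subunit of the ring (chr6:88883474-88898780, minus strand), stood at 982, 1059.9, 2344 and 919.9 normalized counts in CCR8- replicates 1 to 4 and at 1981, 1526, 942 and 1247 in CCR8+ replicates 1 to 4. The highest of the 8 libraries was CCR8- replicate 3, and the groups overlapped. Its difference was 0.17 ± 0.35 on the log2 scale (exact permutation p = 0.686). Mcm5 (chr8:75109569-75128439, plus strand) stood at 1579, 1330.4, 3129.8 and 1596 normalized counts in CCR8- replicates 1 to 4 and at 4270.2, 2763, 1715 and 2044 in CCR8+ replicates 1 to 4. It too was high in CCR8- replicate 3, which exceeded all CCR8+ libraries except replicate 1, and the difference was 0.49 ± 0.34 (exact permutation p = 0.257). Mcm3 and Mcm7 had log2 fold changes of 0.46 and 0.37.

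Of the 5 factors that load or activate the ring, 4 lay below 0 over all libraries and 1, Gins2, without replicate 3 of both groups. Cdc6, which loads MCM onto origins and is removed after firing (chr11:98907801-98923940, plus strand), stood at 1021, 222, 746 and 338 normalized counts in CCR8- replicates 1 to 4 and at 339, 575, 34.2 and 395 in CCR8+ replicates 1 to 4. CCR8+ replicate 3 was far below every other library, and CCR8- replicate 1 was the highest. The difference of -1.10 ± 0.85 was within the spread (exact permutation p = 0.429). It was 0.0019 ± 0.61 without replicate 3 of both groups, the highest of the fits with 1 number left out (-1.92 to 0.0019). Number 3 was set apart because its cell cycle values ran the other way. Higher values without it follow in part from that choice. Cdt1, the partner of CDC6 in loading, differed by -0.032 ± 0.53, and Cdc45 and Gins2, which activate the loaded helicase, by -0.50 ± 0.64 and -0.22 ± 0.44. Gins1, of the same GINS complex, had 0.44 ± 0.63. Without replicate 3 the values were 0.71 ± 0.42 for Cdt1 and 0.19 ± 0.51 for Cdc45. Those of Gins2 and Gins1 were -0.21 ± 0.51 and 0.56 ± 0.68. With each number left out in turn, Cdt1 ranged from -0.55 to 0.71.

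All 8 genes of the replication fork lay above 0, with a median of 0.35, although Pcna was at -0.026 under quantile scaling. Lig1, the ligase that joins Okazaki fragments (chr7:13277283-13311433, plus strand), stood at 702, 597, 1635 and 1068 normalized counts in CCR8- replicates 1 to 4 and at 1513, 1926, 3408 and 1848 in CCR8+ replicates 1 to 4. CCR8+ replicate 3 was the highest library by a wide margin, and CCR8- replicate 3 lay just above the lowest CCR8+ library, so the groups overlapped by 1 library. The log2 fold change was 1.16 ± 0.36 (SE, n = 4 per group), with an adjusted p of 0.838 by limma and an exact permutation p of 0.0571, and it was higher in 4 of 4 same-numbered pairs. Leaving out each library in turn kept Lig1 between 0.92 and 1.44 with an unadjusted limma p under 0.05 in 8 of 8 cases. Of its exonic bases, 5.79% are shared with the neighboring gene Zswim9. Prim1, the primase subunit that starts each new strand, had 0.80 ± 0.37 and was higher in 4 of 4 pairs (exact permutation p = 0.0571). Pcna, the sliding clamp (chr2:132249162-132253314, minus strand), stood at 5421, 4301, 3912 and 4516 normalized counts in CCR8- replicates 1 to 4 and at 5028, 5844, 3201 and 5418 in CCR8+ replicates 1 to 4. Its values lay close together, with CCR8+ replicate 3 lowest and a difference of 0.077 ± 0.23 (exact permutation p = 0.8). Uhrf1, which reads hemimethylated DNA behind the fork and recruits DNMT1 (chr17:56303321-56323486, plus strand), stood at 60.1, 470.4, 1692 and 403 normalized counts in CCR8- replicates 1 to 4 and at 1326, 1192, 463 and 1147 in CCR8+ replicates 1 to 4. CCR8- replicate 1 was far below all other libraries and CCR8- replicate 3 was the highest of all, and the difference of 1.36 ± 0.81 came with an exact permutation p of 0.343. Without CCR8- replicate 1 it was 0.48. Fen1, Rfc3, Rfc4 and Pola1, which process flaps, load the clamp and extend primers, lay between 0.083 and 0.37.

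Of the 5 genes of deoxynucleotide supply, 4 lay above 0, with a median of 0.19. Dut, the dUTPase that keeps uracil out of DNA (chr2:125247190-125258608, plus strand), stood at 2069, 1693, 2016 and 2605 normalized counts in CCR8- replicates 1 to 4 and at 3179, 3104, 2711 and 4251 in CCR8+ replicates 1 to 4. All CCR8+ libraries lay above all CCR8- libraries, the nearest values being CCR8- replicate 4 and CCR8+ replicate 3. The log2 fold change was 0.66 ± 0.22 (SE, n = 4 per group), with an adjusted p of 0.838 by limma and an exact permutation p of 0.0286, the smallest this design allows, and it was higher in 4 of 4 pairs. Dut remained between 0.53 and 0.77 with each library left out, with an unadjusted limma p under 0.05 in 8 of 8 cases. Rrm2, the regulated subunit of ribonucleotide reductase (chr12:24708241-24714146, plus strand), stood at 3489.9, 1909.6, 3876 and 1691 normalized counts in CCR8- replicates 1 to 4 and at 4071, 3999, 1002 and 2520.1 in CCR8+ replicates 1 to 4. CCR8+ replicate 3 was the lowest library, and the remaining values were mixed between groups, with a difference of -0.022 ± 0.45 (exact permutation p = 1.0). Tyms, thymidylate synthase (chr5:30058202-30073617, minus strand), stood at 3468, 1258, 1563 and 999 normalized counts in CCR8- replicates 1 to 4 and at 2058, 2675, 983 and 1814 in CCR8+ replicates 1 to 4. Its highest value was in CCR8- replicate 1 and its lowest in CCR8+ replicate 3, with a difference of 0.13 ± 0.41 (exact permutation p = 0.8). Tk1, the thymidine kinase of the salvage route (chr11:117815526-117826092, minus strand), stood at 583, 601, 1301 and 940.4 normalized counts in CCR8- replicates 1 to 4 and at 1183, 1444, 566 and 1085 in CCR8+ replicates 1 to 4. CCR8- replicate 3 was the second highest library and CCR8+ replicate 3 the lowest, and the difference was 0.32 ± 0.37 (exact permutation p = 0.429). Rrm1, the large reductase subunit, had 0.19 ± 0.42.

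**Figure D3:**
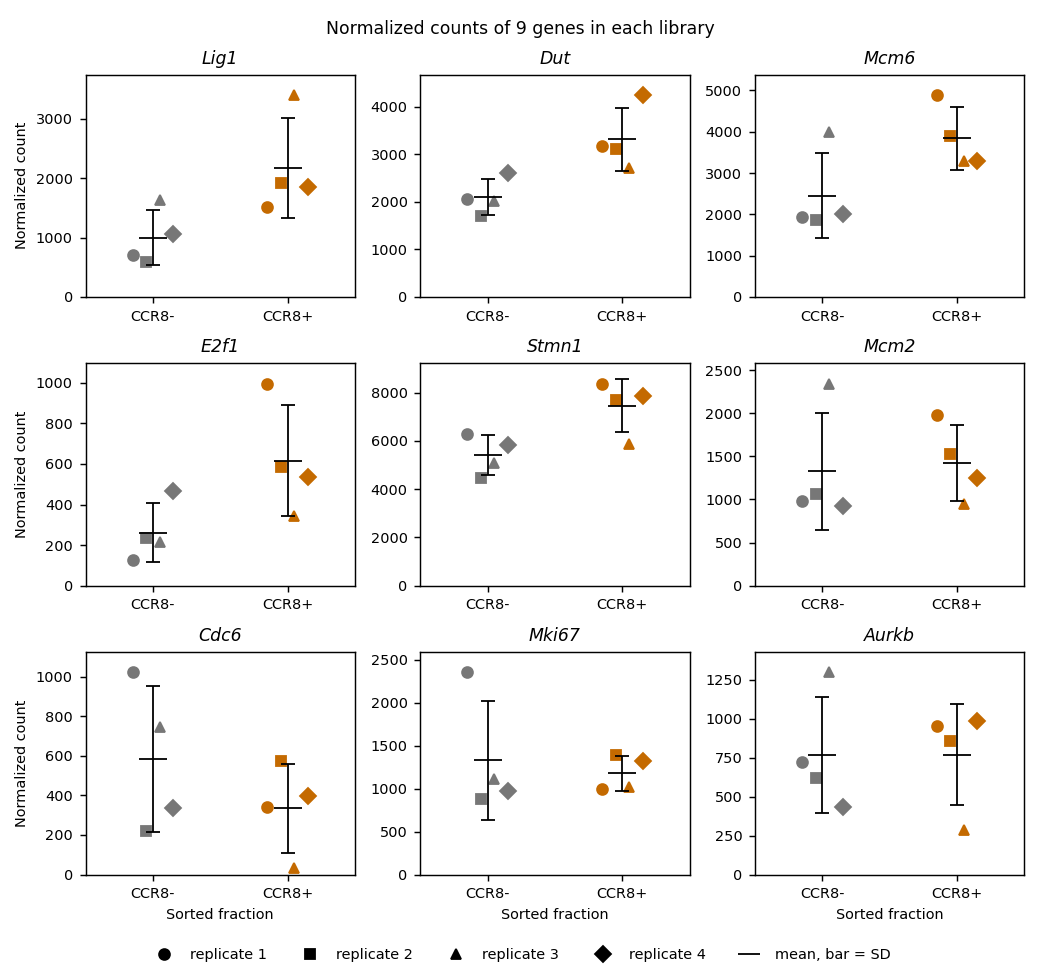
Points give normalized counts of 9 genes in each of the 8 libraries on axes that start at 0, with marker shape for the replicate number, a dash for the mean of 4 and a bar for the SD. Dut is the gene without overlap, Lig1, E2f1 and Stmn1 overlap by 1 or more libraries, and for Mcm2, Mcm6 and Aurkb the triangle of CCR8- replicate 3 is the highest of its group.

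Of the 6 genes of mitotic cyclins, their kinase and their driver, 4 lay above 0, with a median of 0.34. Cdk1, the kinase that starts mitosis (chr10:69335146-69352938, minus strand), stood at 563, 1079.7, 1227 and 1116 normalized counts in CCR8- replicates 1 to 4 and at 1730.3, 1422, 732 and 1689.6 in CCR8+ replicates 1 to 4. CCR8- replicate 1 and CCR8+ replicate 3 were the lowest libraries, and 3 of 4 CCR8+ libraries lay above all CCR8- libraries. The difference was 0.47 ± 0.35 (exact permutation p = 0.314). Ccnb1, cyclin B1 (chr13:100778650-100786570, minus strand), stood at 2925, 783, 1325 and 988 normalized counts in CCR8- replicates 1 to 4 and at 4635, 1543, 1098 and 682 in CCR8+ replicates 1 to 4. Replicate 1 was the highest of both groups and CCR8+ replicate 4 the lowest of all, with a difference of 0.21 ± 0.56 (exact permutation p = 0.743). Ccna2 (cyclin A2) had 0.47 ± 0.49, Ccnb2 (cyclin B2) -0.15 ± 0.35 and Cks2, a small CDK-binding protein, -0.10 ± 0.25. Foxm1, a transcription factor of G2 genes, had 0.68 ± 0.97 at a mean of 132 ± 158 (SD, n = 4) normalized counts in CCR8- and 134 ± 32.7 in CCR8+ libraries.

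Mitotic kinases, checkpoint genes and genes of the anaphase-promoting complex were split evenly, 4 above and 4 below 0, with a median of 0.072. Aurkb, the kinase of the chromosomal passenger complex (chr11:69045647-69051664, plus strand), stood at 724, 620.3, 1299 and 432 normalized counts in CCR8- replicates 1 to 4 and at 952, 856, 287 and 988 in CCR8+ replicates 1 to 4. CCR8- replicate 3 was the highest and CCR8+ replicate 3 the lowest library, and the remaining CCR8+ values lay above the remaining CCR8- values. The difference over all libraries was -0.03 ± 0.47 (exact permutation p = 1.0). Birc5, survivin, a partner of AURKB (chr11:117849251-117855743, plus strand), stood at 3277, 1739, 1985 and 1836 normalized counts in CCR8- replicates 1 to 4 and at 2613, 2770.1, 1114 and 2074 in CCR8+ replicates 1 to 4. Its lowest value was in CCR8+ replicate 3 and its highest in CCR8- replicate 1, with a difference of -0.078 ± 0.32 (exact permutation p = 0.83). Plk1, the polo kinase of mitotic entry and spindle formation (chr7:122159439-122169873, plus strand), stood at 679.7, 510.1, 563 and 536 normalized counts in CCR8- replicates 1 to 4 and at 457, 615, 343 and 507 in CCR8+ replicates 1 to 4. Its values were close together, and the difference of -0.27 ± 0.32 was within the spread (exact permutation p = 0.229). Cdc20, the activator of the anaphase-promoting complex (chr4:118432901-118437352, minus strand), stood at 700.3, 553, 1653 and 876 normalized counts in CCR8- replicates 1 to 4 and at 1029, 1071, 757 and 524 in CCR8+ replicates 1 to 4. CCR8- replicate 3 was the highest library and CCR8+ replicate 4 the lowest, with a difference of -0.089 ± 0.38 (exact permutation p = 0.857). Ube2c, the ubiquitin-conjugating enzyme of the same complex, had 0.42 ± 0.35, and the checkpoint kinases Bub1 and Bub1b 0.69 ± 0.60 and 0.25 ± 0.67. Aurka had 0.17 ± 0.52.

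Of 9 kinetochore, spindle and cytokinesis genes, 7 lay above 0, with a median of 0.42. Stmn1, stathmin, which destabilizes microtubules (chr4:134468320-134473843, plus strand), stood at 6297, 4456, 5089 and 5826 normalized counts in CCR8- replicates 1 to 4 and at 8373, 7705, 5874 and 7859 in CCR8+ replicates 1 to 4. CCR8+ replicates 1, 2 and 4 lay above all CCR8- libraries, and CCR8+ replicate 3 lay within the CCR8- range. The log2 fold change was 0.46 ± 0.20 (SE, n = 4 per group), with an adjusted p of 0.838 by limma and an exact permutation p of 0.0571, higher in 4 of 4 pairs. It was the 1 mitosis member of 26 that was higher in 4 of 4 pairs, where 8.44% of all genes were. An unadjusted limma p under 0.05 was kept in 2 of the 8 fits with a library left out, and Stmn1 ranged from 0.37 to 0.57 in them. Kif20a, a kinesin of cytokinesis, had 0.96 ± 1.21, and -0.22 without CCR8- replicate 1. Kif23, another kinesin of the midzone, had -1.16 ± 0.78, and -0.31 without CCR8+ replicate 1. Tpx2, which nucleates spindle microtubules, had 0.56 ± 0.53, Nusap1 0.51 ± 0.30, Kif11 0.42 ± 0.36, Cenpf 0.22 ± 0.49, Cenpa 0.0049 ± 0.31 and Cenpe -0.041 ± 0.45. The values of Cenpa and Cenpe were within 1 SE of 0 and turned sign with the scaling.

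All 3 genes of mitotic chromosomes and chromatin lay just below 0, with a median of -0.066. Mki67, the gene of the Ki-67 protein (chr7:135689784-135716361, minus strand), stood at 2353, 879, 1109 and 971 normalized counts in CCR8- replicates 1 to 4 and at 994, 1391, 1018 and 1317 in CCR8+ replicates 1 to 4. CCR8- replicate 1 was the highest library by far, and the other 7 values were close together. The difference was -0.066 ± 0.32 (exact permutation p = 0.914), and 0.33 without replicate 1 of both groups. Top2a, the topoisomerase that untangles sister chromatids (chr11:98992943-99024189, minus strand), stood at 1563, 1058, 1998 and 1007 normalized counts in CCR8- replicates 1 to 4 and at 1233, 1547, 843 and 1319 in CCR8+ replicates 1 to 4. CCR8+ replicate 3 was the lowest and CCR8- replicate 3 the highest library, with a difference of -0.16 ± 0.30 (exact permutation p = 0.6). Hmgb2, a chromatin protein of cycling lymphocytes, had -0.044 ± 0.33. These 3 genes lay below 0 in all 5 scalings computed. Without replicate 3 of both groups, Top2a was at 0.20 ± 0.25, Hmgb2 at 0.18 ± 0.32 and Mki67 at -0.047 ± 0.40. Number 3 was set apart after its values were seen, so these shifts follow in part from that choice.

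Of 3 genes of G1 cyclins and their kinase, 2 lay above 0, with a median of 0.40. Ccnd2, cyclin D2 (chr6:127125162-127152193, minus strand), stood at 6188, 7894, 4508 and 6965 normalized counts in CCR8- replicates 1 to 4 and at 6533, 6431, 14887 and 7336 in CCR8+ replicates 1 to 4. CCR8+ replicate 3 held more than any other library and the rest overlapped, with a difference of 0.40 ± 0.30 (exact permutation p = 0.4) that was -0.047 ± 0.18 without replicate 3. Ccnd3, cyclin D3 (chr17:47505051-47599691, plus strand), stood at 1962, 3939, 4155 and 2786 normalized counts in CCR8- replicates 1 to 4 and at 2596, 3931, 1509.9 and 2436 in CCR8+ replicates 1 to 4. CCR8+ replicate 3 was the lowest library, and the difference was -0.31 ± 0.33 (exact permutation p = 0.429). Cdk6, a kinase partner of the D-type cyclins (chr5:3341485-3531008, plus strand), stood at 0, 336, 637 and 574 normalized counts in CCR8- replicates 1 to 4 and at 519, 608, 1048 and 420.4 in CCR8+ replicates 1 to 4. It was at 0 in CCR8- replicate 1, where 3 reads correspond to 2.96 normalized counts, and highest in CCR8+ replicate 3. The difference of 2.54 ± 1.72 depended on that 0 and on the count of 1 added before taking logs (exact permutation p = 0.257), and was 0.30 without CCR8- replicate 1.

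Of the 5 regulators of the G1/S transition, E2f1 stood apart. E2f1, an activating E2F factor (chr2:154559407-154569892, minus strand), stood at 127, 237, 213 and 468 normalized counts in CCR8- replicates 1 to 4 and at 996, 586, 346 and 534 in CCR8+ replicates 1 to 4. CCR8+ replicate 1 was the highest library, and CCR8- replicate 4 lay above CCR8+ replicate 3 and below the other CCR8+ libraries. The log2 fold change was 1.29 ± 0.51 (SE, n = 4 per group), with an adjusted p of 0.838 by limma and an exact permutation p of 0.0571, higher in 4 of 4 pairs. E2f1 ranged from 0.99 to 1.62 with 1 library left out and had an unadjusted limma p under 0.05 in 6 of 8 such fits. E2f8, a repressing member of the family (chr7:48866429-48881596, minus strand), stood at 149, 74.2, 163 and 34.1 normalized counts in CCR8- replicates 1 to 4 and at 220.5, 163, 7.98 and 76.6 in CCR8+ replicates 1 to 4. It was lowest in CCR8+ replicate 3, with a difference of -0.34 ± 1.21 (exact permutation p = 0.857) that was 0.29 under quantile scaling. Ccne1, cyclin E1 (chr7:38097984-38107534, minus strand), stood at 593, 388, 432 and 348 normalized counts in CCR8- replicates 1 to 4 and at 444, 778, 327 and 388 in CCR8+ replicates 1 to 4. CCR8+ replicate 2 was the highest and CCR8+ replicate 3 the lowest library, with a difference of 0.087 ± 0.39 (exact permutation p = 0.8). Ccne2, cyclin E2 (chr4:11191351-11204779, plus strand), stood at 176, 73.5, 112 and 34.1 normalized counts in CCR8- replicates 1 to 4 and at 172, 134, 7.98 and 68.8 in CCR8+ replicates 1 to 4. Like E2f8 it was lowest in CCR8+ replicate 3, and the difference was -0.46 ± 1.20 (exact permutation p = 0.743), or 0.24 under quantile scaling. Cks1b, which helps to degrade the inhibitor p27 (chr3:89415472-89418383, minus strand), stood at 2754, 1782, 1337 and 1945 normalized counts in CCR8- replicates 1 to 4 and at 2845, 2750.0, 1606 and 2961 in CCR8+ replicates 1 to 4. CCR8+ replicates 1, 2 and 4 and CCR8- replicate 1 were close to each other and above the rest. Cks1b was higher in 4 of 4 pairs, with a difference of 0.39 ± 0.28 (exact permutation p = 0.314).

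The 2 CDK inhibitors lay on opposite sides of 0. Cdkn1a, which encodes p21 and is induced by p53 (chr17:29090976-29100727, plus strand), stood at 5983, 3930.1, 2618 and 6425 normalized counts in CCR8- replicates 1 to 4 and at 5319, 6449, 6071 and 7329 in CCR8+ replicates 1 to 4. CCR8- replicates 2 and 3 were the lowest libraries and the rest were mixed, with a difference of 0.49 ± 0.28 (exact permutation p = 0.171). Cdkn1b, which encodes p27, an inhibitor typical of resting T cells (chr6:134920401-134925513, plus strand), stood at 565, 460.1, 276 and 374 normalized counts in CCR8- replicates 1 to 4 and at 57.3, 285, 338 and 367 in CCR8+ replicates 1 to 4. CCR8+ replicate 1 was far below all other libraries, which overlapped, and the difference was -0.93 ± 0.63 (exact permutation p = 0.171). It was -0.30 without CCR8+ replicate 1.

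Libraries with the same replicate number were also set side by side. The median difference of the S-phase genes, CCR8+ minus CCR8- on the log2 scale, was 0.86 for number 1, 1.06 for number 2, -0.84 for number 3 and 0.45 for number 4. Of the 24 genes, 17, 24, 4 and 21 were higher in CCR8+ in these comparisons. The mitosis genes had medians of 0.48, 0.59, -0.79 and 0.28, with 18, 25, 3 and 17 of 26 higher in CCR8+. S phase and mitosis thus shared their signs, and among the members the S-phase medians were the larger in size in each of the 4. The other S-phase and mitosis genes given below did not repeat that order of size for numbers 3 and 4. The regulators had 0.063, 0.78, 0.28 and 0.17, with 6, 7, 6 and 7 of 10 higher. Their value for number 3 was -0.051 with all libraries scaled to the same total. Over all genes tested the medians lay between -0.0074 and 0 for the 4 numbers.

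**Figure D4:**
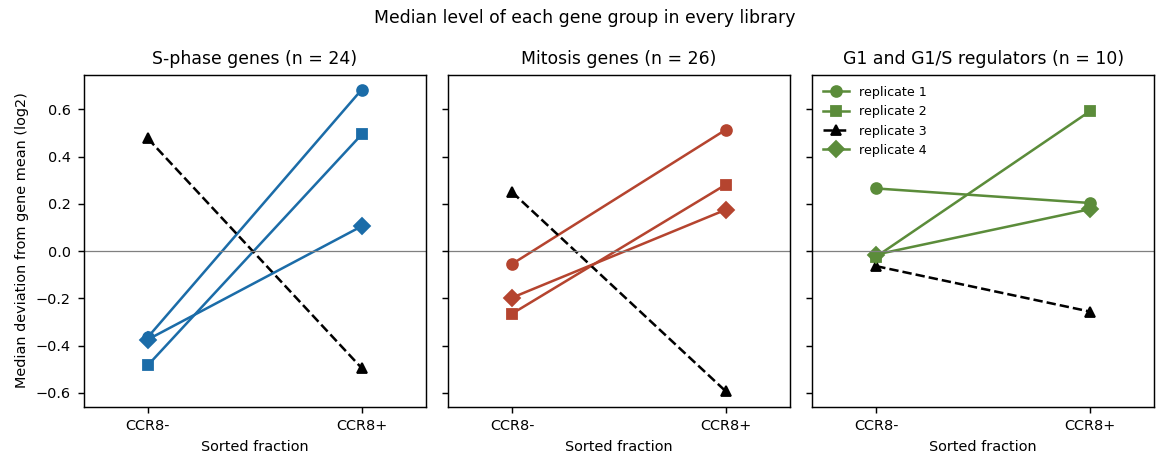
Points give, for each library, the median over a gene group of log2(normalized count + 1) minus the mean of each gene, and lines join libraries with the same replicate number. For S phase and mitosis the lines of numbers 1, 2 and 4 run upward from CCR8- to CCR8+ and the dashed line of number 3 runs downward.

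Higher in CCR8+ in all 4 same-numbered comparisons were 6 of 60 members, a share near the 8.44% of all genes. Lower in all 4 were 0 members, against 8.1% of all genes. The 6 were Lig1, Dut, Prim1, Stmn1, E2f1 and Cks1b. A reversed number 3, that is higher in CCR8+ for numbers 1, 2 and 4 and lower for number 3, was found for 24 of 60 members and for 5.94% of all genes. The 24 comprised 12 S-phase genes, 11 mitosis genes and 1 regulator. Since this pattern was picked after its values were seen, its share is given as a description. Both libraries numbered 3 took part in it. The median deviation of the S-phase genes from their own means was 0.48 in CCR8- replicate 3, where the other CCR8- libraries lay between -0.48 and -0.37, and -0.50 in CCR8+ replicate 3, where the other CCR8+ libraries lay between 0.11 and 0.68. Over all genes tested, the same median was -0.29 in CCR8- replicate 1 and 0.036 to 0.19 in the other libraries. The lowest of the 8 libraries was CCR8+ replicate 3 for 37.5% of S-phase genes, 34.6% of mitosis genes and 13.5% of all genes. CCR8- replicate 1 was the lowest for 12.5% of S-phase genes, 26.9% of mitosis genes and 41.2% of all genes. Among the largest differences for number 3 were Cdc6 (-4.41), Cdc45 (-2.58), Cdt1 (-2.27), Kif20a (-2.42), Bub1b (-2.41), Aurkb (-2.17) and the regulators E2f8 (-4.19) and Ccne2 (-3.66). Lig1, at 1.06, Cdkn1a, at 1.21, and Ccnd2, at 1.72, lay on the other side.

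**Figure D5:**
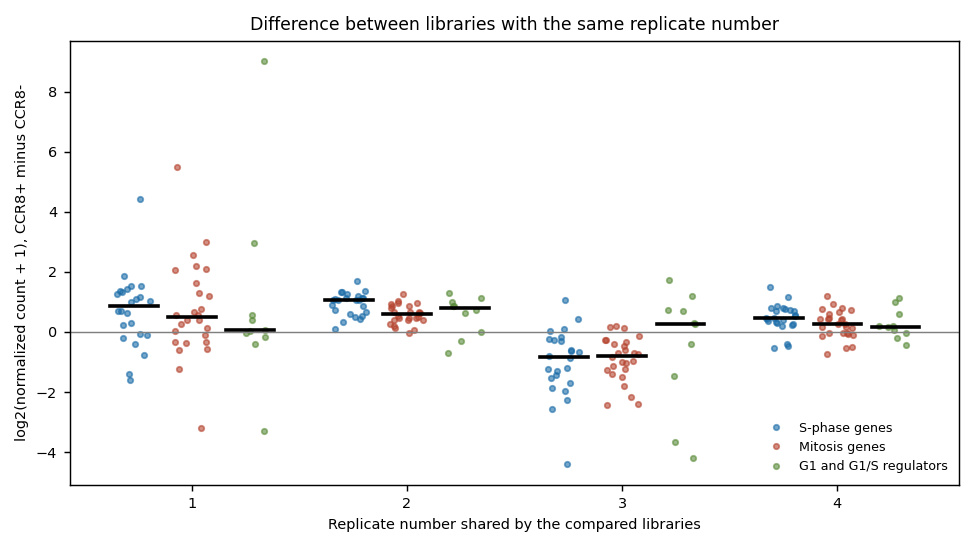
Each point is 1 gene, and its height is the difference in log2(normalized count + 1), CCR8+ minus CCR8-, between the libraries that share a replicate number, with a black bar at the median of each gene group. In number 3, 4 of 24 S-phase genes and 3 of 26 mitosis genes lie above 0.

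Levels of other transcripts differed too between the libraries numbered 3. The melanoma markers summed to 5574 normalized counts in CCR8- replicate 3 and to 232 in CCR8+ replicate 3, with 0 of 7 higher in CCR8+, and 3 of the 7 (Tyr, Sox10 and Mitf) were at 0 in the latter, as they were in both libraries numbered 1. Their sums were 105 and 308 for number 1, 4413 and 5177 for number 2 and 17389 and 21841 for number 4, in CCR8- and CCR8+ respectively. The macrophage and monocyte markers summed to 1553 in CCR8- replicate 3 and 3718 in CCR8+ replicate 3. Their sums were 87.7 and 28580 for number 1, 4536 and 19696 for number 2 and 85345 and 26081 for number 4, so a difference was not particular to number 3. Of the 8 markers of naive and quiescent T cells, which cycle little, 7 had a log2 fold change below 0, 5 of them at an unadjusted limma p under 0.05 and 0 after adjustment, with sums of 16802 to 28733 in CCR8- and 8092 to 14446 in CCR8+ libraries. CCR8- replicate 3 held the highest sum of that list and the third highest median of the S-phase genes. Ccr8 was highest in CCR8+ replicate 3, and it was also highest within its group in CCR8- replicate 3. The part of tumor cells, of other cells and of the sort in the cell cycle values was not tested.

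Without replicate 3 of both groups, the cell cycle genes lay further apart, though again 0 of 60 passed limma with adjustment (lowest adjusted p = 0.818), as did 0% of all genes. The median log2 fold change was 0.65 for S-phase genes, 0.37 for mitosis genes and 0.34 for regulators, with 0.062 over all genes. The value was above 0 for 23 of 24 S-phase genes, 22 of 26 mitosis genes and 8 of 10 regulators. At an unadjusted limma p under 0.05, 19 members were higher, against 2.07% of all genes, and 0 were lower, against 1.54%. Of the 19, 12 belonged to S phase, 6 to mitosis and 1 to the regulators. Groups of 3 did not overlap for 24 members higher in CCR8+, against 6.35% of all genes, and for 1 member lower in CCR8+ (Cdkn1b), against 5.45%. In these 6 libraries Mcm6 was at 1.04 ± 0.20, Mcm3 at 1.12 ± 0.31, Mcm5 at 0.95 ± 0.29, Mcm2 at 0.66 ± 0.24 and Mcm7 at 0.98 ± 0.38, so 5 of the 6 MCM subunits were among the 19. Lig1 (1.20 ± 0.28), Uhrf1 (2.43 ± 0.76), Prim1 (1.06 ± 0.36), Fen1 (0.57 ± 0.22), Rrm1 (0.82 ± 0.27), Tk1 (0.83 ± 0.28) and Dut (0.73 ± 0.23) made up the S-phase genes of that count. Those of mitosis were Ccna2 (1.23 ± 0.35), Ube2c (0.89 ± 0.22), Cdk1 (0.87 ± 0.31), Nusap1 (0.79 ± 0.28), Aurkb (0.68 ± 0.29) and Stmn1 (0.54 ± 0.20), and the regulator was E2f1 (1.48 ± 0.56). Number 3 is described apart because its cell cycle values ran the other way, so these larger counts follow in part from that choice, and the shares of all genes beside them are not a fair measure for them. Leaving out number 1, 2 or 4 gave 2, 1 and 3 members at that level. With 3 against 3 libraries the smallest p of an exact permutation test is 0.10, so no exact p is given.

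Further genes of the pathway were listed by role apart from the 60. Of 58 other S-phase genes, 74 other mitosis genes and 47 other regulators tested, 0 passed limma with adjustment, and the median log2 fold changes were 0.31, 0.18 and 0.15. For the replicate numbers 1 to 4, the medians were 1.13, 0.48, -0.73 and 0.26 for the other S-phase genes and 0.40, 0.46, -0.99 and 0.30 for the other mitosis genes. CCR8- replicate 1 was at 0 for 10 of these S-phase genes and 15 of these mitosis genes, and CCR8+ replicate 3 for 3 and 8. The differences of such genes rest in part on the count of 1 added before taking logs. Without replicate 3 they were 0.74, 0.57 and 0.42 for S phase, mitosis and regulators. At an unadjusted limma p under 0.05 there were 1 S-phase gene, 1 mitosis gene and 4 regulators higher in CCR8+, and 1 regulator lower, where 2.8% and 2.29% of all genes were. The S-phase and mitosis counts, 1 of 58 and 1 of 74, were below that share.

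Values of those 7 genes are given as a description. Dtymk, thymidylate kinase, stood at 684, 809, 1009 and 1099 normalized counts in CCR8- replicates 1 to 4 and at 1221, 1537, 1339 and 1522 in CCR8+ replicates 1 to 4, without overlap (0.66 ± 0.24, exact permutation p = 0.0286). Cenpm, a centromere protein, stood at 390.1, 162, 167 and 176 normalized counts in CCR8- replicates 1 to 4 and at 625, 395, 448 and 491 in CCR8+ replicates 1 to 4, again without overlap (1.21 ± 0.46, exact permutation p = 0.0286). Cdk4, the main kinase of the D-type cyclins, stood at 1003, 2237, 2359.6 and 2446 normalized counts in CCR8- replicates 1 to 4 and at 3484, 3112, 3749.8 and 2480.0 in CCR8+ replicates 1 to 4, with the groups just apart (0.74 ± 0.30, exact permutation p = 0.0286). Rfc2, a clamp loader subunit named after its values were seen, was the other S-phase gene without overlap (0.36 ± 0.19, exact permutation p = 0.0286). Without overlap and higher in CCR8+ were 2 of 58 other S-phase genes, 1 of 74 other mitosis genes and 1 of 47 other regulators. These counts were near the share of all genes, 2.37%. Genes named here were picked by their p or their lack of overlap, so the exact p values are a description. Tfdp1, the dimer partner of E2F factors, stood at 572, 1045, 1023 and 821 normalized counts in CCR8- replicates 1 to 4 and at 1644, 1424, 1882 and 1043 in CCR8+ replicates 1 to 4, with 1 CCR8+ library inside the CCR8- range (0.80 ± 0.29, exact permutation p = 0.0571). Gadd45b, a stress-induced regulator, stood at 2444, 7826, 8306 and 12923 normalized counts in CCR8- replicates 1 to 4 and at 9257, 11348, 21989 and 17528 in CCR8+ replicates 1 to 4, and Myc, which drives growth and G1 progress, at 213, 462, 1575 and 463 normalized counts in CCR8- replicates 1 to 4 and at 1589, 975, 2455 and 711 in CCR8+ replicates 1 to 4. Both overlapped between groups, at 1.08 ± 0.47 and 1.31 ± 0.57, and both were higher in CCR8+ for 4 of 4 numbers. E2f2, an activating E2F factor like E2f1, lay on the other side, at 900.3, 305, 749 and 198 normalized counts in CCR8- replicates 1 to 4 and at 424, 167, 74.1 and 55.7 in CCR8+ replicates 1 to 4. It was lower in CCR8+ for 4 of 4 numbers (-1.77 ± 0.76, exact permutation p = 0.114), where E2f1 was higher for 4 of 4.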

How the data were processed

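Tconv cells were sorted by FACS from tumors, RNA was amplified with a SMARTer ultra-low-input kit, and libraries were sequenced on an Illumina HiSeq. According to the methods and labels, the authors trimmed reads with Cutadapt, aligned them with hisat2 to mouse build NCBIM37, kept uniquely mapped reads and counted them per gene (HTSeq), with DESeq2 for scaling and comparison. The deposited values are a normalized signal: each is a read count divided by 1 size factor per library. All values came out as whole reads (tolerance 0.05 reads), so recovered read counts could be used in alternatives. No strand setting was found in the sources used here.

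Tests covered 11032 genes, those averaging 10 or more over the 8 libraries, and were made with limma 3.58.1 (R 4.3.3) on log2(value + 1) with a mean-variance trend and Benjamini-Hochberg adjustment at 0.05. Fold changes on that scale understate changes of low genes. Single genes were also tested with a two-sided exact permutation test over 70 assignments of the libraries. Alternatives used other scalings, added constants and filters, limma without trend or with robust variance, edgeR 4.0.16 and DESeq2 1.42.0 on recovered reads, replicate number as a block, and each library or number left out. The fits were also run on simulated counts with known fold changes, drawn for each gene independently. Those counts held no shifts shared by the genes of a library, so they do not show how the fits behave under such shifts.

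The members, the lists by role, the other cell cycle lists and the marker lists were chosen with earlier results of these data known. Values in every library are given for members with an unadjusted limma p under 0.05 or groups without overlap, for a list of landmark genes, for all regulators, and for other cell cycle genes with an unadjusted limma p under 0.05. Coordinates are from GENCODE M21 (GRCm38), not the build used for alignment, and promoters from RefSeq (GRCm38.p6).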

Additional observations from a re-analysis of the deposited data

Results flagged for a closer look

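Within each fraction of 4 libraries, the highest or lowest library was set against the other 3 by Dixon's criterion, for each of the 60 genes and for the 3 group medians. Of 126 such groups 13 stood out, where independent groups would give about 1 in 20 by chance. These groups share the same 8 libraries and are not independent, so an excess over that rate was not shown. CCR8- replicate 3 was far above its group for Mcm2 (2343.8 normalized counts, the others at 919.9 to 1059.9) and Mcm6 (3997.3, the others at 1865.5 to 2011.3). It was also above its group in the median deviation of the S-phase genes from their means, at 0.4772 on the log2 scale. CCR8+ replicate 3 was far below its group for Uhrf1 (463), Aurkb (287.4), Cenpa (911.2) and Cks1b (1605.7), and far above it for Ccnd2 (14887.3). CCR8- replicate 1 was lowest for Cdk1 (563.4) and for Cdk6, which was listed at 0 there, and highest in the median deviation of the regulators (0.2652). CCR8+ replicate 1 was highest for Tpx2 (1508.8) and lowest for Cdkn1b (57.3). Libraries numbered 3 thus gave 8 of the 13 values. What sets these libraries apart was not tested.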

How the results depend on the processing

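Over 27 alternatives, 367 of 401 main comparisons were labelled as unchanged, a label that allowed limited shifts. A list median counted as unchanged if it moved by less than its SD between libraries, so its sign could turn. The mitosis median did so, at -0.028 with 1 library left out. Members at an unadjusted p under 0.05 and higher in CCR8+ were 3 with libraries scaled to the same total, 3 with limma without trend and 3 with edgeR and a replicate block, and ranged from 1 to 19 with libraries or replicate numbers left out. Members without overlap ranged from 1 to 24 higher and from 0 to 1 lower in those settings. Genes called over the whole table were 2 by limma without trend, 1 by limma with the block, 27 by DESeq2 and 126 by DESeq2 with the block.

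Same-numbered libraries had correlations of 0.068, 0.14, 0.11 and 0.22 between their deviations from the group means. Each CCR8+ library correlated best with its own number, and so did each CCR8- library other than replicate 1. CCR8- replicate 1 correlated more with CCR8+ replicate 3 (0.095) than with CCR8+ replicate 1 (0.068), so pairing by number was not shown for number 1. DESeq2 with the replicate block called 1 member, Lig1 (1.16, adjusted p = 0.008, against 0.427 to 0.999 in all other settings). It also called 1 other cell cycle gene, Gadd45b (adjusted p = 0.034). DESeq2 without the block called 0 other cell cycle genes, and limma without it gave Gadd45b an adjusted p of 0.838. No other call among members changed under the block.

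With 1 library or 1 number left out, the S-phase median lay between 0.090 and 0.65, the mitosis median between -0.028 and 0.38 and the median of the other regulators between -0.11 and 0.42. Signs turned, with the value over all libraries or the turned value over 1 SE from 0, for Tpx2 (-0.25 to 0.91), Mki67 (-0.31 to 0.33), Cdc6 (-1.92 to 0.0019), Cdt1 (-0.55 to 0.71), Rrm2 (-0.38 to 0.62), Aurkb (-0.44 to 0.68) and Ccnd2 (-0.047 to 0.63). The regulators' median for number 3 was -0.051 with libraries scaled to the same total. In the 250 bases before the start alone, a CHR was found in 45% of mitosis promoters, and a CHR with a CCAAT box in 45%. The causes of these shifts were not tested. Depth, from 12067780 reads, limits the genes at low counts, such as Ccne2, E2f8 and Foxm1, whose values rest on few reads in some libraries.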
